A study of Rattus norvegicus with 16 samples.

Results

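Decorin (Dcn), lumican (Lum), biglycan (Bgn), fibromodulin (Fmod), osteoglycin (Ogn), prolargin (Prelp) and asporin (Aspn) are small leucine-rich proteoglycans, which are secreted proteins of the collagen matrix. These 7 genes were taken by symbol from the 31038 genes in the deposited tables, and all 7 were found. They were grouped as matrix genes of the endoneurial fibroblast, the fibroblast that lies between the nerve fibers. RNA came from rat sciatic nerve in 16 libraries, as 2 replicates of each of 8 groups. The groups were purified Schwann cells and whole nerve, each without injury and on days 3, 5 and 7 after a crush. The labels give postnatal day 18 for every sample, no genotype, transgene or drug, and no separate age at collection. The study's methods give postnatal day 18 as the age at surgery, so crushed animals were older at collection by the days after crush. Age at collection and time after crush therefore cannot be told apart. The crush was made to the left nerve, the segment distal to it was collected, and no sham operation entered the comparison. Each sample pooled at least 10 nerves. Schwann cells were purified by immunopanning, in which dishes coated with antibodies to CD45 and Thy1 first bound the myeloid cells and fibroblasts, after which the Schwann cells were taken on a dish coated with the O4 antibody. Whole nerve was not dissociated, so the tissue comparison also compares dissociated with intact material.

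Small leucine-rich proteoglycans bind fibrillar collagen through an arched leucine-rich repeat domain and set the diameter and spacing of collagen fibrils. Decorin and biglycan carry chondroitin or dermatan sulfate chains, lumican, fibromodulin and osteoglycin can carry keratan sulfate, and asporin and prolargin are usually found without such chains. Several of them hold growth factors of the TGF-beta and BMP families or act on surface receptors, and in peripheral nerve they belong to the collagenous matrix around and between the nerve fibers.

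The deposited expected counts summed to between 10555067 and 27562637 per library. The 7 genes took between 0.00901% and 0.0154% of the counts in the Schwann cell libraries and between 0.574% and 0.882% in whole nerve. Sox10, a transcription factor of the Schwann cell lineage that was chosen for this check after its values were seen, stood at 59.11 to 95.5 FPKM in purified Schwann cells and at 21.52 to 52.06 FPKM in whole nerve. FPKM is the number of fragments per kilobase of transcript, scaled to the fragments of the library, so it can be compared between genes. Summed FPKM of 7 macrophage markers was 2.58 to 12.7 in Schwann cells against 123 to 561 in whole nerve, that of 6 endothelial markers 0.60 to 4.15 against 86.2 to 123, and that of 5 fat and muscle markers 0.07 to 1.29 against 203 to 620. The sum of 6 mural cell markers was 38.5 and 51.4 in uncrushed Schwann cells, 7.99 to 17.9 in crushed Schwann cells and 259 to 381 in whole nerve. In the same order the sum of 5 perineurial markers was 115 and 119, 58.0 to 66.9 and 152 to 283, and that of 10 Schwann cell markers, which include the myelin genes, was 9283 and 9457, 4210 to 6956 and 2419 to 21626. The sum of 15 fibroblast markers was 1457 and 1688 in uncrushed Schwann cells, 311 to 470 in crushed Schwann cells and 4545 to 5535 in whole nerve. Of these, Col3a1, Col1a1 and Col1a2 had the highest means in uncrushed Schwann cells, at 1019, 299 and 131 FPKM. Col1a2 is listed at 0.01 FPKM in uncrushed nerve, so these sums do not measure a share of fibroblasts. Col1a1 and Col1a2 are named after their values were seen. Replicate 2 of Schwann cells at day 3 stood apart: all 7 proteoglycan genes were higher in it than in replicate 1 (71.49 against 43.4 FPKM in sum), and so were 7 of 7 macrophage markers (12.68 against 2.58), 5 of 6 endothelial markers (4.15 against 0.92), 6 of 6 mural markers (17.94 against 7.99) and 12 of 15 fibroblast markers, whose sum was 336.97 against 310.87. The part of these cells in the levels of that library was not tested. The day 3 values of the members against uncrushed Schwann cells, and the day 3 counts there of the gene lists of the pathway and of fibroblast, mural and perineurial markers, are also given without it. Of the other genes named at day 3 in Schwann cells, those whose call was lost without it are given.

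The members lie on 4 chromosomes of the rat. In the RefSeq annotation of the assembly GRCr8, Dcn and Lum are neighbors on chromosome 7 with Kera and Epyc beyond them, Prelp lies between Optc and Fmod on chromosome 13, Omd lies between Ogn and Aspn on chromosome 17, and Bgn lies on chromosome X. Ogn, Omd, Aspn and Ecm2 all lie within the span of the gene Cenpp, and whether the counting used strand is not given in the sources used here, so their reads and those of Cenpp may not be fully separated. RefSeq promoter windows were matched for 4 of the 7 members, and after the bases inside any annotated transcript of the gene were removed, sequence remained for Ogn, Aspn and Fmod. The windows of Ogn and Fmod are printed, 5′ to 3′ on the strand of the gene, because among the members with a window these had the largest rise and the largest fall that passed the test in Schwann cells. They are chr17:15259168-15259245 on the minus strand and chr13:48045317-48045566 on the plus strand of GRCr8, with motif matches in capitals.
Ogn: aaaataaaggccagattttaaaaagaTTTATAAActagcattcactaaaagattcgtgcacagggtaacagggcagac
Fmod: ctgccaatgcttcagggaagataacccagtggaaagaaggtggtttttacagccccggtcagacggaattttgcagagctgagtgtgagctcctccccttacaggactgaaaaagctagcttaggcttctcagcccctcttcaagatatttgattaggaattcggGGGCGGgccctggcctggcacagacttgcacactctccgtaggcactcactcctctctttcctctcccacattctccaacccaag
The TATA box was searched on both strands as TATAAA. The motif of AP-1 was searched in the same way as TGANTCA. For the TEAD factors the letters were CATTCC. For the GC box they were GGGCGG. The Ogn window of 78 bases held TATAAA beginning 50 bases before the outermost annotated start, overlapped by its match on the other strand at 52 bases, and 4.27% of 33469 rat promoter windows of that length hold this motif. The Fmod window of 250 bases held GGGCGG 85 bases before the start, a motif in 30.5% of windows of that length. The Aspn window of 152 bases, at chr17:15310568-15310719 on the minus strand, held none of the 4. These matches describe the letters of the windows, and no measurement here bears on binding to them.

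In whole nerve 6 of the 7 genes were among the more abundant transcripts, with ranks by mean FPKM between 24 and 709 among the genes above 0 at the 4 times. Dcn, which binds collagen I and TGF-beta, had the highest level of the 7 in every whole nerve library. Its FPKM was 1702.57 and 1859.58 in uncrushed nerve, 2486.25 and 2419.02 at day 3, 2536.09 and 2526.08 at day 5, then 3064.31 and 3056.81 at day 7. Ranked by mean FPKM, Dcn was number 32 of the 21744 genes above 0 in uncrushed nerve and number 24 of 20969 at day 7. Lum, which spaces collagen fibrils, came next, with means of 945 ± 99.4 FPKM (SD, n = 2) in uncrushed nerve and 950 ± 13.5, 892 ± 36.7 and 876 ± 16.3 FPKM at days 3, 5 and 7. Ogn followed at 452 ± 61.9 FPKM in uncrushed nerve, then Bgn at 200 ± 21.8, Prelp at 161 ± 25.5, Aspn at 117 ± 17.0 and Fmod at 11.3 ± 2.18, and no neighbors in this order overlapped. At day 3 the libraries of Ogn (395.89 and 402.63 FPKM) and Bgn (402.18 and 378.58) overlapped, as did those of Aspn (126.31 and 121.45) and Prelp (125.82 and 114.60). At day 5 Aspn, at 180.20 and 132.49 FPKM, lay above Prelp, at 124.80 and 129.49, and at day 7 it lay below it again, at 136.49 and 121.71 against 147.68 and 166.11.

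**Figure D1:**
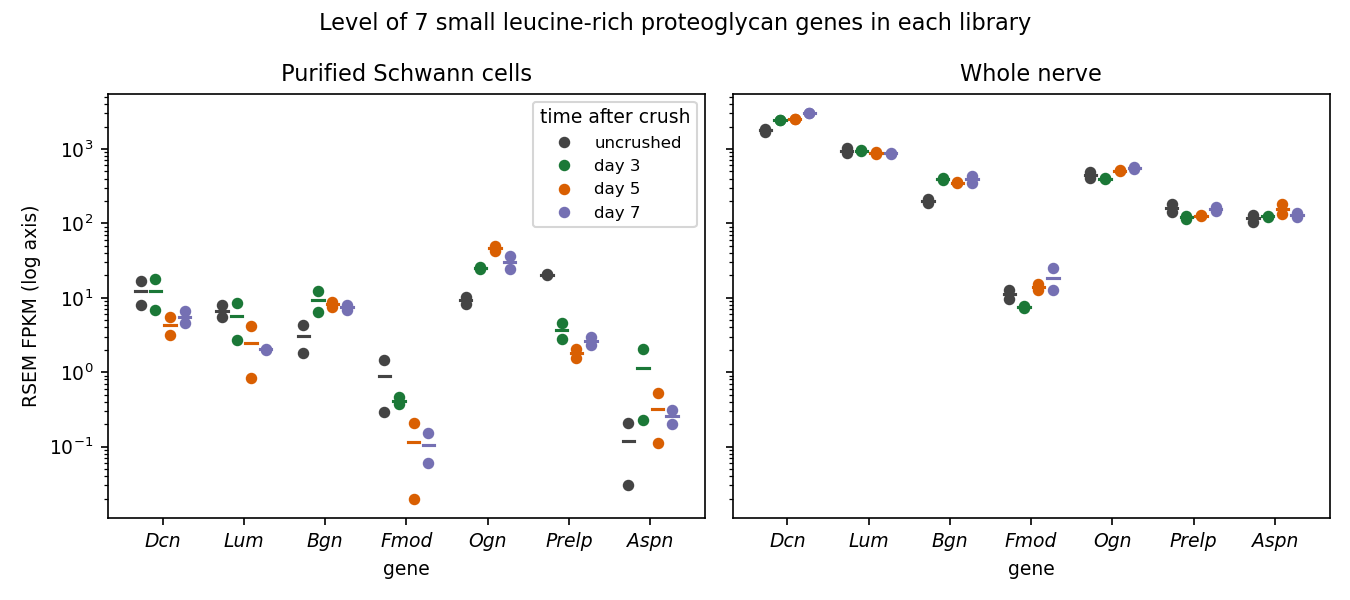
FPKM (log axis) of the 7 small leucine-rich proteoglycan genes in the 8 libraries of purified Schwann cells (left) and the 8 of whole nerve (right). Points are libraries, colored by time after crush, and short lines are group means of 2 libraries. Dcn stands highest in whole nerve at every time, at 1703 to 3064 FPKM, whereas in Schwann cells Prelp is highest before crush and Ogn at each time after it.

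The order was different in purified Schwann cells. Before crush, Prelp, which anchors basement membranes to the underlying matrix, was highest at 20.59 and 20.28 FPKM. Dcn followed at 16.89 and 7.92 FPKM and overlapped with Ogn at 8.25 and 10.23. Lum (7.87 and 5.46), Bgn (4.33 and 1.80), Fmod (1.47 and 0.29) and Aspn (0.03 and 0.21 FPKM) came after these without overlap between neighbors. At day 3, day 5 and day 7 Ogn was highest without overlap with any other member. Bgn came next at day 5 and day 7, and at day 3 the ranges of Dcn, Bgn and Lum overlapped, as did those of Lum and Prelp. By rank among genes above 0 in Schwann cells, Ogn moved from 5968 before crush to 3065, 1834 and 2645 at days 3, 5 and 7, and Prelp from 3422 to 8680, 10583 and 9860.

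Which of the 7 genes changed in Schwann cells after crush was tested by edgeR (quasi-likelihood) on the counts of the 8 Schwann cell libraries, against uncrushed Schwann cells, with adjustment over all 14961 genes tested. Ogn and Bgn rose and Prelp fell at each of the 3 times. Fmod fell at days 5 and 7 and Dcn at day 5, and Lum and Aspn passed the test at none of the 3 times. At day 3, 2 of 7 rose, where 26.9% of all genes tested did, and 1 fell, against 25.7%. At day 5, 2 rose (29% of all genes) and 3 fell (25.6%), and at day 7, 2 rose (25%) and 2 fell (21.9%). The counts that rose were near the shares of all genes. Those that fell, from 1 to 3 of 7, are a description and were not tested against the shares. The median log2 fold change over the 7 was 0.09 at day 3, -1.41 at day 5 and -1.18 at day 7, and over all genes tested it was 0.00, 0.06 and 0.06. The counts at day 3 were also 2 and 1 without replicate 2 of that day, with a median over the 7 of -0.82. For 1 gene, the smallest p that an exact permutation test (two-sided) of 2 libraries against 2 allows is 0.333, and these calls rest on the spread that edgeR shares between groups and genes. The labels do not say that replicates came from separate cultures or animals, so p-values measure the spread between these samples.

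Ogn, the keratan sulfate proteoglycan also called mimecan, had the largest rise that passed the test. Its FPKM in Schwann cells was 8.25 and 10.23 before crush, 24.04 and 25.57 at day 3, 42.59 and 49.99 at day 5, then 24.41 and 36.36 at day 7. Every library after crush lay above both uncrushed libraries, and the day 5 libraries were the highest. The log2 fold change was 1.47 ± 0.20 (SE, adjusted p = 0.000183) at day 3, 2.28 ± 0.20 (adjusted p = 1.16e-05) at day 5 and 1.64 ± 0.20 (adjusted p = 0.000134) at day 7, which is 2.78-fold, 4.85-fold and 3.11-fold higher. The day 3 value of Ogn was 1.43 (adjusted p = 0.00162) without replicate 2 of that day. The rise from day 3 to day 5 passed the test at 0.81 ± 0.19 (adjusted p = 0.0220), as 1 of 2 members to do so where 12.5% of all genes did. The fall from day 5 to day 7 did not, at -0.64 ± 0.19 (adjusted p = 0.122). In the FPKM that the authors made with Cufflinks, which the table used here holds for 3 of the members under column names that give the day and not the tissue, and which were taken as Schwann cells from the study's methods, the mean of Ogn after crush was 3.52, 7.93 and 4.65 times the uncrushed mean at days 3, 5 and 7, against 2.68, 5.01 and 3.29 in the RSEM FPKM. Both sets place the highest level at day 5.

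Prelp moved the other way. Its FPKM was 20.59 and 20.28 in uncrushed Schwann cells, against 2.79 and 4.59 at day 3, 1.53 and 2.05 at day 5, then 2.94 and 2.31 at day 7. All 6 libraries after crush lay below both uncrushed libraries. Its log2 fold change was -2.37 ± 0.29 (SE, adjusted p = 8.99e-05), -3.63 ± 0.32 (adjusted p = 1.10e-05) and -3.12 ± 0.31 (adjusted p = 3.52e-05) at days 3, 5 and 7, or 5.18-fold, 12.4-fold and 8.68-fold lower. In the Cufflinks FPKM the mean of Prelp was 4.12-fold, 6.53-fold and 5.48-fold lower, against 5.54-fold, 11.4-fold and 7.78-fold in the RSEM FPKM, and lowest at day 5 in both. The further fall from day 3 to day 5 was -1.26 ± 0.32 (adjusted p = 0.0317). Without replicate 2 of day 3, the library that stood apart, that difference was -0.64 and no longer passed, while the fall from uncrushed to day 3 was -2.98. The calls of Ogn and Prelp against uncrushed cells held with each replicate left out in turn and under each other alternative run. Summed fibroblast markers also fell in Schwann cells after crush, from 1457 and 1688 to between 311 and 470 FPKM. Of the 12 that were tested, 5 fell and 1 rose at day 3, 6 fell and 1 rose at day 5, and 4 fell and 0 rose at day 7, where 25.7%, 25.6% and 21.9% of all genes fell. With replicate 2 of day 3 left out, 4 of 13 fell and 1 rose at day 3. The largest contributor was Col3a1, a fibrillar collagen chain, at 1023.47 and 1014.66 FPKM before crush and 20.3 and 35.81 at day 3 (log2 fold change -5.12 ± 0.30, adjusted p = 7.10e-07, or -5.60 without replicate 2). Mfap5, a microfibril protein, went from 95.21 and 115.66 to 8.55 and 8.37 FPKM (log2 fold change -3.57 ± 0.18). Pdgfra, a growth factor receptor of fibroblasts chosen after its values were seen, stood at 0.48 and 0.26 FPKM before crush and 0.09 to 0.60 after it, with no call. The summed markers of mural cells and of perineurial cells given above were also lower in every crushed Schwann cell library. Of 5 mural markers tested, 2 fell and 0 rose at each time, also without replicate 2 of day 3. These were Pdgfrb, a growth factor receptor of mural cells, at 33.71 and 29.14 FPKM before crush and 3.06 and 3.74 at day 3 (log2 fold change -3.14 ± 0.13, adjusted p = 1.15e-07), and Cspg4, a proteoglycan of pericytes (-1.49 ± 0.19, adjusted p = 0.000148). Pdgfrb was higher in uncrushed Schwann cells than in uncrushed nerve (log2 difference 1.41 ± 0.13, adjusted p = 2.39e-07), whereas Rgs5, Acta2 and Abcc9, which were lower there by the same comparison, had no call at day 3 (-0.24, 0.84 and -1.06). Acta2 and Cldn1 are named after their values were seen. Of 3 perineurial markers tested, 1, 2 and 2 fell and 0 rose at days 3, 5 and 7, with Itgb4, an integrin chain, at 98.79 and 95.31 FPKM before crush and 45.85 and 42.02 at day 3 (-1.09 ± 0.09, adjusted p = 6.50e-06). At day 3 without replicate 2 the count was 2 of 3. Itgb4 too was higher in uncrushed Schwann cells than in uncrushed nerve (1.06 ± 0.13, adjusted p = 5.41e-06), and Cldn1, the tight junction gene of the list, had no call at any of the 3 times. The part of RNA of fibroblasts, mural cells or perineurial cells in the fall of Prelp was not tested.

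Bgn, which also acts as a ligand of Toll-like receptors, rose at a lower level. Its FPKM was 4.33 and 1.80 before crush, 6.48 and 12.45 at day 3, 8.75 and 7.49 at day 5, then 6.77 and 8.09 at day 7. The libraries after crush lay above both uncrushed libraries. The log2 fold change was 1.69 ± 0.38 (SE, adjusted p = 0.00404) at day 3, 1.38 ± 0.38 (adjusted p = 0.0119) at day 5 and 1.23 ± 0.38 (adjusted p = 0.0245) at day 7. Without replicate 2 of day 3, the day 3 value was 1.12 and still passed (adjusted p = 0.0382). Without replicate 1 of uncrushed cells, the higher of the pair, the 3 values were 2.43, 2.12 and 1.97. The later calls were less firm. Without replicate 2 of uncrushed cells the values were 0.89 (adjusted p = 0.0682) at day 5 and 0.74 (adjusted p = 0.132) at day 7. The day 5 call was also lost without replicate 1 of day 5 (1.24, adjusted p = 0.0597), and the day 7 call without replicate 1 (1.36, adjusted p = 0.0533) or replicate 2 (1.11, adjusted p = 0.0944) of day 7. The Cufflinks means of Bgn were 4.12, 4.49 and 3.63 times the uncrushed mean, against 3.09, 2.65 and 2.42 in the RSEM FPKM, so that the highest level was at day 5 in the first set and at day 3 in the second.

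Dcn, Lum and Fmod were lower at the later times, from low levels and with wide spread. Dcn was at 16.89 and 7.92 FPKM in uncrushed Schwann cells, against 6.77 and 17.88 at day 3, 5.47 and 3.12 at day 5, then 6.56 and 4.51 at day 7. It overlapped with uncrushed cells at day 3 and lay below them at days 5 and 7. As a log2 fold change, Dcn was at 0.09 ± 0.46 (SE, adjusted p = 0.880) at day 3, -1.53 ± 0.50 (adjusted p = 0.0256) at day 5 and -1.18 ± 0.49 (adjusted p = 0.0737) at day 7. Without replicate 2 of day 3, the day 3 value was -0.82. The day 5 call was lost with the Wald test of DESeq2 (-1.58, adjusted p = 0.0552), without replicate 1 of uncrushed cells (-0.92, adjusted p = 0.197) and without replicate 2 of day 5 (-1.16, adjusted p = 0.156). Lum was at 7.87 and 5.46 FPKM before crush, 2.72 and 8.49 at day 3, 4.16 and 0.83 at day 5, then 2.01 and 2.06 at day 7. Its values of -0.16 ± 0.60, -1.41 ± 0.64 and -1.75 ± 0.67 did not pass the test (adjusted p = 0.838, 0.0881 and 0.0549), and the first was -1.24 without replicate 2 of day 3. Fmod, which is modified by tyrosine sulfate at its amino terminus, was at 1.47 and 0.29 FPKM before crush and at 0.02 to 0.46 after it, from 1 to 57 counts per library. It was 7.16-fold lower at day 5 (log2 fold change -2.84 ± 0.91, adjusted p = 0.0246) and 8.89-fold lower at day 7 (-3.15 ± 0.97, adjusted p = 0.0234). Both calls were lost without replicate 1 of uncrushed cells, at -1.27 (adjusted p = 0.354) and -1.57 (adjusted p = 0.292), and so were that of day 5 without replicate 2 of day 5 (-2.01, adjusted p = 0.127) and that of day 7 without either replicate of day 7 (-2.58 and -3.81). The day 3 value of Fmod was -1.01 without a call, and -1.20 without replicate 2 of that day. With 1 library left out the Fmod values ran from -5.18 to -1.27 at day 5 and from -3.89 to -1.57 at day 7. In Dcn, Lum and Fmod alike, the higher of the uncrushed libraries was replicate 1.

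Aspn, described in other tissues as an inhibitor of TGF-beta and BMP signaling, was at the edge of detection in Schwann cells, with 0.49 to 75 counts per library. The FPKM was 0.03 and 0.21 before crush, 0.23 and 2.05 at day 3, 0.52 and 0.11 at day 5, then 0.20 and 0.31 at day 7. The high value was that of replicate 2 of day 3. The log2 fold change at day 3 was 2.57 ± 1.08 and did not pass the test (adjusted p = 0.0690), nor did those of 0.76 and 0.90 at days 5 and 7. The day 3 value was 1.32 (adjusted p = 0.460) without the high library, and with any 1 library left out it ran from 1.32 to 8.02, the highest without replicate 2 of uncrushed cells.

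**Figure D2:**
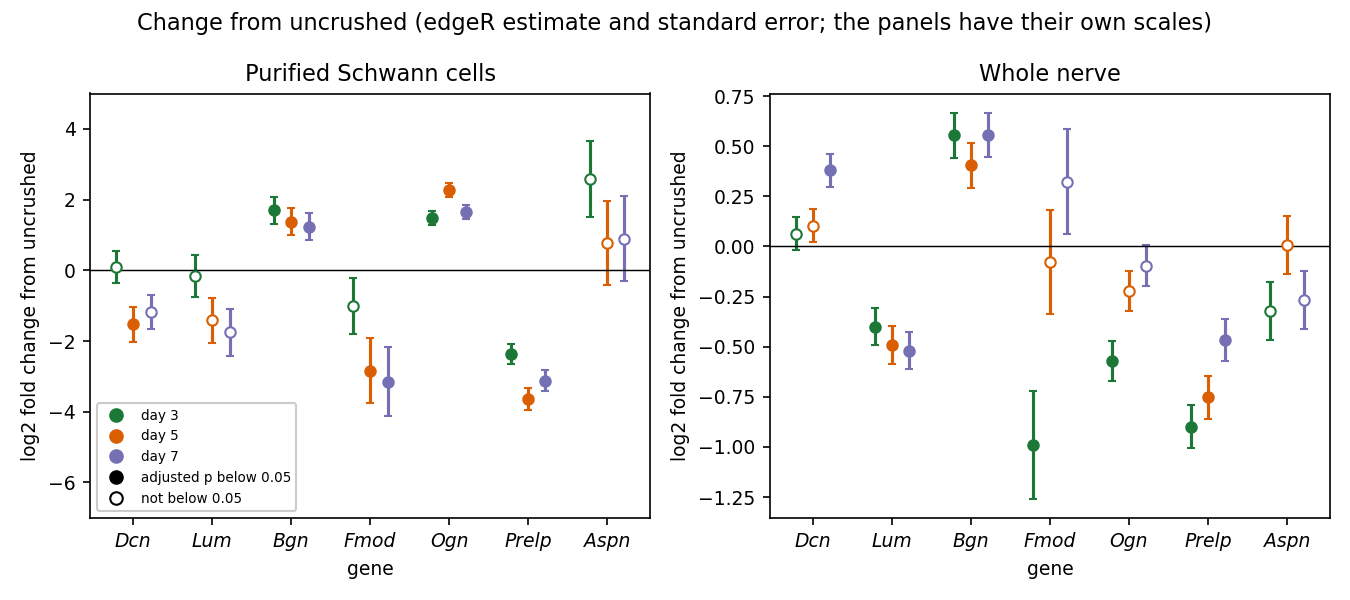
Log2 fold change from uncrushed (edgeR estimate, bars ± 1 SE, 2 libraries against 2) of each gene at days 3, 5 and 7 in purified Schwann cells (left) and whole nerve (right). Filled points have an adjusted p below 0.05, and the scale of the right panel is narrower. In Schwann cells Ogn and Bgn are above 0 and Prelp below it at each time, and in whole nerve no change exceeds 1 log2 unit.

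Between the times after crush, few differences passed with low counts filtered out. From day 3 to day 5, Ogn and Prelp are the 2 members that passed, and both calls were lost without replicate 2 of day 3, at 0.86 for Ogn and -0.64 for Prelp, and without either replicate of day 5. From day 5 to day 7 and from day 3 to day 7, 0 of 7 passed by edgeR, where 1.95% and 21% of all genes did. At an unadjusted p below 0.05 there were 1 and 3 members. DESeq2 called 1 member from day 5 to day 7 and 0 from day 3 to day 7. The shares of all genes at the unadjusted threshold and by DESeq2 are not given here. With no filter on low counts, 6, 1 and 5 of 7 were called from day 3 to day 5, day 5 to day 7 and day 3 to day 7, where 12.5%, 4.79% and 17.8% of all genes were, and the median SE of the 7 was 0.22, 0.24 and 0.21 in place of 0.49, 0.51 and 0.48. Against uncrushed cells the median SE without a filter was also lower, at 0.20, 0.22 and 0.21 for days 3, 5 and 7 in place of 0.46, 0.50 and 0.49. The members called there without a filter are not listed here.

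In whole nerve the changes were small. They were tested in the same way in the 8 whole nerve libraries over 15831 genes. At day 3, 1 member rose, where 23.1% of all genes did, and 4 fell, against 22.5%. At day 5, 1 rose (18.9% of all genes) and 2 fell (19.5%), and at day 7, 2 rose (15.4%) and 2 fell (15.9%). The median over the 7 was -0.40, -0.08 and -0.10 at days 3, 5 and 7, against 0.00, -0.01 and 0.02 over all genes. The direction of small changes in whole nerve depends on the scaling. Genes of the mitochondrial genome took 14.2% to 15.6% of the counts in uncrushed nerve and 6.24% to 8.83% in crushed nerve, and with library totals in place of TMM factors the median of all genes rose by 0.41, 0.39 and 0.42 at days 3, 5 and 7. With library totals alone, 3 members were called at day 3. In a fit of all 16 libraries, 2, 1 and 0 members were called at days 3, 5 and 7. That fit shares 1 estimate of the spread, and it also has its own TMM factors and tests 16829 genes in place of 15831. The shares of all genes called under these 2 settings are not given here, so these counts have no background beside them. The values that follow are relative to the TMM scale, on which the median gene did not move, whereas FPKM follows the library total. In bulk RNA, fewer cells of a type and less RNA per cell cannot be told apart.

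Bgn was higher at each time. Its FPKM in whole nerve was 185.07 and 215.87 before crush, 402.18 and 378.58 at day 3, 345.51 and 358.20 at day 5, then 353.02 and 429.15 at day 7. Each library after crush lay above both uncrushed libraries. On the TMM scale its log2 fold change was 0.55 ± 0.11 (SE, adjusted p = 0.00233), 0.40 ± 0.11 (adjusted p = 0.0159) and 0.56 ± 0.11 (adjusted p = 0.00364) at days 3, 5 and 7. With library totals alone it was 0.96, 0.81 and 0.96. The day 5 call was lost without replicate 1 of uncrushed nerve (0.30, adjusted p = 0.0992) and without replicate 2 of day 5 (0.38, adjusted p = 0.0801). Of all members, Bgn was the one whose direction from uncrushed was upward and called in both tissues at all 3 times.

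Dcn rose late. Its FPKM, given above, was higher in every crushed library than in both uncrushed ones. On the TMM scale the log2 fold change was 0.06 ± 0.08 (adjusted p = 0.561) at day 3, 0.10 ± 0.08 (adjusted p = 0.355) at day 5 and 0.38 ± 0.08 (adjusted p = 0.00595) at day 7. With library totals alone it was 0.47, 0.51 and 0.79 and passed the test at all 3 times. From day 3 to day 7, where the scales of the libraries are closer, Dcn rose by 0.32 ± 0.08 (adjusted p = 0.0225).

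Prelp fell at each time, as it did in Schwann cells, but by less. Its FPKM in whole nerve was 143.34 and 179.37 before crush, 125.82 and 114.60 at day 3, 124.80 and 129.49 at day 5, then 147.68 and 166.11 at day 7. The day 3 and day 5 libraries lay below the uncrushed ones and those of day 7 overlapped with them. On that scale the log2 fold change of Prelp was -0.90 ± 0.11 (SE, adjusted p = 7.25e-05), -0.75 ± 0.11 (adjusted p = 0.000344) and -0.47 ± 0.11 (adjusted p = 0.00758). With library totals alone the falls were -0.49, -0.35 and -0.06, of which the last did not pass. The day 7 call was also lost without replicate 2 of uncrushed nerve (-0.30, adjusted p = 0.0608) and without replicate 1 of day 7 (-0.41, adjusted p = 0.0598).

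Lum was lower on the TMM scale and hardly different on that of library totals. Its FPKM was 874.80 and 1015.39 before crush, 959.77 and 940.71 at day 3, 866.09 and 917.96 at day 5, then 864.02 and 887.03 at day 7. The libraries of each time overlapped with the uncrushed ones. The log2 fold change was -0.40 ± 0.09 (adjusted p = 0.00540), -0.49 ± 0.09 (adjusted p = 0.00210) and -0.52 ± 0.09 (adjusted p = 0.00184) with TMM factors and 0.01, -0.09 and -0.11 with library totals alone, so that the direction turned at day 3 and none of the 3 calls was left. The day 3 call was also lost without replicate 2 of day 3 (-0.36, adjusted p = 0.0539). Ogn was at 407.73 and 495.34 FPKM before crush, 395.89 and 402.63 at day 3, 504.12 and 522.45 at day 5, then 537.14 and 577.98 at day 7. Its value at day 3 was lower (log2 fold change -0.57 ± 0.10, adjusted p = 0.00107), and without a call at -0.22 ± 0.10 and -0.10 ± 0.10 at days 5 and 7. With library totals alone these 3 values were -0.16, 0.18 and 0.31, and the call at day 3 was lost. Fmod was at 9.73 and 12.82 FPKM before crush, 7.66 and 7.33 at day 3, 12.67 and 15.49 at day 5, then 12.53 and 24.79 at day 7. Its fall at day 3, of -0.99 ± 0.27 (adjusted p = 0.0120), was -0.58 and not called with library totals alone. It was also lost without replicate 2 of uncrushed nerve (-0.78, adjusted p = 0.0736) and without replicate 1 (-1.03, adjusted p = 0.0501) or replicate 2 (-0.94, adjusted p = 0.0703) of day 3. Aspn did not pass the test at any time on the TMM scale, at -0.32 ± 0.14, 0.01 ± 0.14 and -0.27 ± 0.14.

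From day 3 to day 7, 4 members rose in whole nerve, where 9.85% of all genes did, and 0 fell, against 11.4%. Besides Dcn these were Fmod (1.31 ± 0.26, adjusted p = 0.00589), Ogn (0.48 ± 0.10, adjusted p = 0.00810) and Prelp (0.43 ± 0.11, adjusted p = 0.0168). Without replicate 2 of day 3 none of the 4 passed, at 0.28 for Dcn, 1.27 for Fmod, 0.47 for Ogn and 0.37 for Prelp, and without replicate 1 of day 3 Fmod alone did. From day 3 to day 5, Fmod was the 1 member called by edgeR (0.91 ± 0.26, adjusted p = 0.0495), where 11.5% of all genes were. That call was lost with DESeq2 (0.92, adjusted p = 0.108) and without either replicate of day 3 or day 5. From day 5 to day 7, 0 of 7 were called, where 7.4% of all genes were. There 2 members had an unadjusted p below 0.05 and DESeq2 called 1. The shares of all genes for these last counts are not given here.

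Whether the effect of crush differed between the tissues was tested in a fit of all 16 libraries as the change in Schwann cells minus the change in whole nerve. At day 3, 3 of 7 members passed, where 26% of 16829 genes did, at day 5, 4 of 7 (27.5%) and at day 7, 4 of 7 (26%). Ogn and Prelp passed at all 3 times. For Ogn the difference was 1.94 ± 0.23 (SE, adjusted p = 2.92e-05) at day 3, 2.38 ± 0.23 (adjusted p = 4.80e-06) at day 5 and 1.62 ± 0.23 (adjusted p = 0.000167) at day 7, an increase in Schwann cells beside a fall or no call in whole nerve. For Prelp the difference was -1.56 ± 0.29 (adjusted p = 0.00114), -3.01 ± 0.32 (adjusted p = 9.31e-06) and -2.76 ± 0.31 (adjusted p = 1.88e-05), a fall in Schwann cells larger than that in whole nerve. The day 3 differences were 1.89 for Ogn and -2.19 for Prelp without replicate 2 of Schwann cells at day 3. These 6 calls held under each alternative run. Dcn differed at day 5 (-1.76 ± 0.53, adjusted p = 0.0225) and day 7 (-1.67 ± 0.52, adjusted p = 0.0292), and so did Fmod (-2.90 ± 0.89, adjusted p = 0.0256, and -3.65 ± 0.95, adjusted p = 0.0115). Without replicate 1 of uncrushed Schwann cells the Dcn values were -1.14 and -1.05 and those of Fmod -1.29 and -2.04, none of which passed, and the Dcn calls were also lost without other single libraries of either tissue. Aspn differed at day 3 (2.93 ± 0.86, adjusted p = 0.0217), a call lost with DESeq2 (2.80, adjusted p = 0.0648), without replicate 1 of uncrushed Schwann cells (1.86, adjusted p = 0.148) and without replicate 2 of Schwann cells at day 3 (1.57, adjusted p = 0.322), and at 8.27 without replicate 2 of uncrushed Schwann cells. The difference for Bgn, of 1.04 ± 0.40, 0.84 ± 0.41 and 0.55 ± 0.41, did not pass (adjusted p = 0.0744, 0.148 and 0.363), nor did that for Lum.

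All 7 members were lower in purified Schwann cells than in whole nerve at all 4 times, where 35.3% of all genes were lower before crush and 32.8%, 28.4% and 28.7% at days 3, 5 and 7. The smallest difference before crush was that of Prelp, with a log2 difference of -3.37 ± 0.21 (SE, adjusted p = 6.37e-09), and the largest that of Aspn, at -9.30 ± 0.51 (adjusted p = 1.93e-09). For Dcn the log2 difference was -7.48 ± 0.44, -7.55 ± 0.44, -9.24 ± 0.48 and -9.15 ± 0.48 in uncrushed nerve and at days 3, 5 and 7, or 179-fold to 605-fold lower. The direction and the calls were the same with each alternative, but sizes that rest on few counts moved. The uncrushed value of Aspn was -14.6 without replicate 2 of uncrushed Schwann cells, which leaves a library with 0.49 counts, and -8.23 without replicate 1. Without replicate 2 of Schwann cells at day 3, the day 3 differences were -8.49 for Dcn, -8.41 for Lum, -7.73 for Aspn, -5.88 for Bgn, -5.56 for Prelp, -4.30 for Fmod and -3.98 for Ogn. At day 5 the smallest difference was that of Ogn, at -3.48 ± 0.17 or 11.2-fold.

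The mean FPKM in Schwann cells was then set against that in whole nerve. Dcn in Schwann cells was 0.696% of its level in whole nerve before crush and 0.503%, 0.170% and 0.181% at days 3, 5 and 7. Lum was close to it at 0.705%, 0.590%, 0.280% and 0.232%, and Aspn was at 0.103%, 0.920%, 0.201% and 0.198%. These were among the lowest of the percents of 14 fibroblast markers. Col1a2 was left out of these markers because it is listed at or near 0 in several whole nerve libraries. Dpt (dermatopontin, a matrix protein of fibroblasts) stood at 0.663%, 0.566%, 0.195% and 0.233%, and Pdgfra at 1.25%, 0.779%, 0.636% and 0.298%, both chosen after their values were seen. Cd34, a surface marker of nerve fibroblasts chosen in the same way, had 0 counts in both Schwann cell libraries of day 7 and 0 to 15 counts in the others. The median of the 14 markers was 3.24% before crush, 1.63% at day 3, 1.71% at day 5 and 1.04% at day 7, and their range ran from 0.534% to 75.8% before crush. Prelp went from 12.7% to 3.07%, 1.41% and 1.67%, and Fmod from 7.80% to 5.54%, 0.817% and 0.563%. Ogn went from 2.05%, below the median marker, to 6.21%, 9.02% and 5.45%. Bgn was at 1.53%, 2.42%, 2.31% and 1.90%. The 7 genes did not share 1 ratio between the tissues: Dcn, Lum and Aspn lay near the lowest fibroblast markers. Ogn and Bgn lay below the median marker before crush and above it at each time after it. Prelp lay above the median marker before crush and at days 3 and 7, and Fmod before crush and at day 3. With replicate 1 alone at day 3 the median marker was at 0.960%, Dcn, Lum and Aspn were at 0.276%, 0.286% and 0.186%, and Ogn, Fmod, Prelp and Bgn were at 6.02%, 4.94%, 2.32% and 1.66%. The bulk libraries do not place any of them in a cell type, and whether they are made by the endoneurial fibroblast was not tested.

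**Figure D3:**
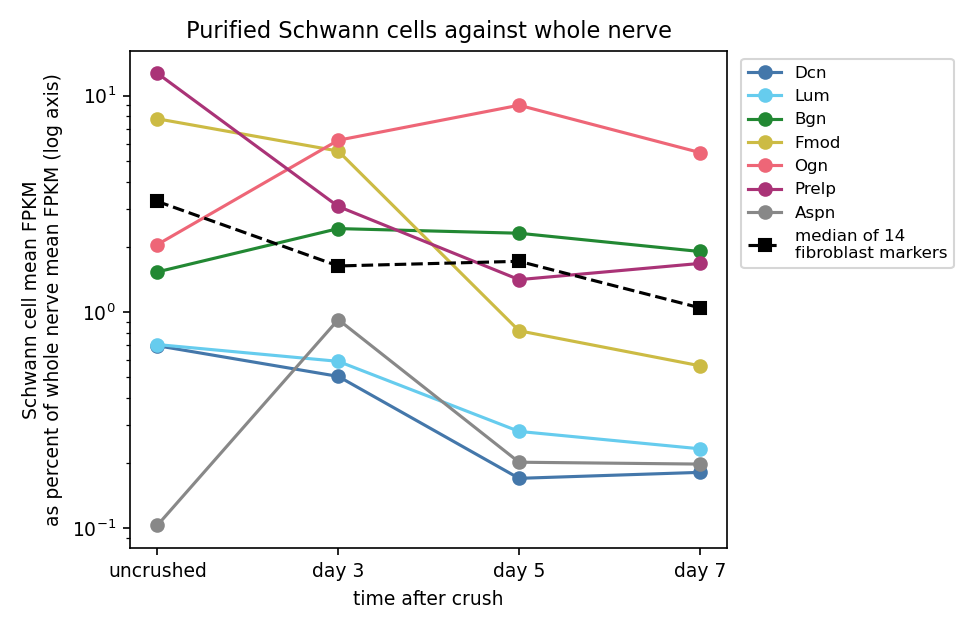
Mean FPKM in purified Schwann cells as percent of mean FPKM in whole nerve (log axis) at each time, for the 7 genes (colored lines) and the median of 14 fibroblast markers (dashed, squares); each point is a ratio of means of 2 libraries, without error bars. Ogn rises from 2.05% to 9.02% at day 5, Prelp falls from 12.7% to 1.41%, and Dcn, Lum and Aspn stay below 1% throughout.

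The make-up of the 7-gene total changed in Schwann cells, where Ogn took the place of Prelp as the largest share, and in whole nerve, where Dcn and Lum stayed the largest. The summed FPKM itself was 59.43 and 46.19 in uncrushed Schwann cells and 42.95 to 71.49 in crushed ones, which overlap. Prelp was on average 39.3% of the sum before crush and 6.42%, 2.82% and 5.57% at days 3, 5 and 7. Ogn was 18.0% of it before crush and 45.6%, 73.0% and 62.2% after. At day 3 the share of Ogn was 55.4% in replicate 1 and 35.8% in replicate 2, the library that stood apart. Dcn went from 22.8% to 20.3%, 6.78% and 11.8%, and Bgn from 5.59% to 16.2%, 12.8% and 15.4%. In whole nerve Dcn was 48.6%, 55.2%, 55.2% and 59.0% of the sum and Lum 25.7%, 21.4%, 19.5% and 16.9%, so the share of Dcn was higher and that of Lum lower in every crushed library. Prelp went from 4.39% to 2.704%, 2.77% and 3.02% and Bgn from 5.46% to 8.78%, 7.67% and 7.53%, also without overlap with uncrushed nerve, and Ogn was between 8.99% and 12.3%.

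**Figure D4:**
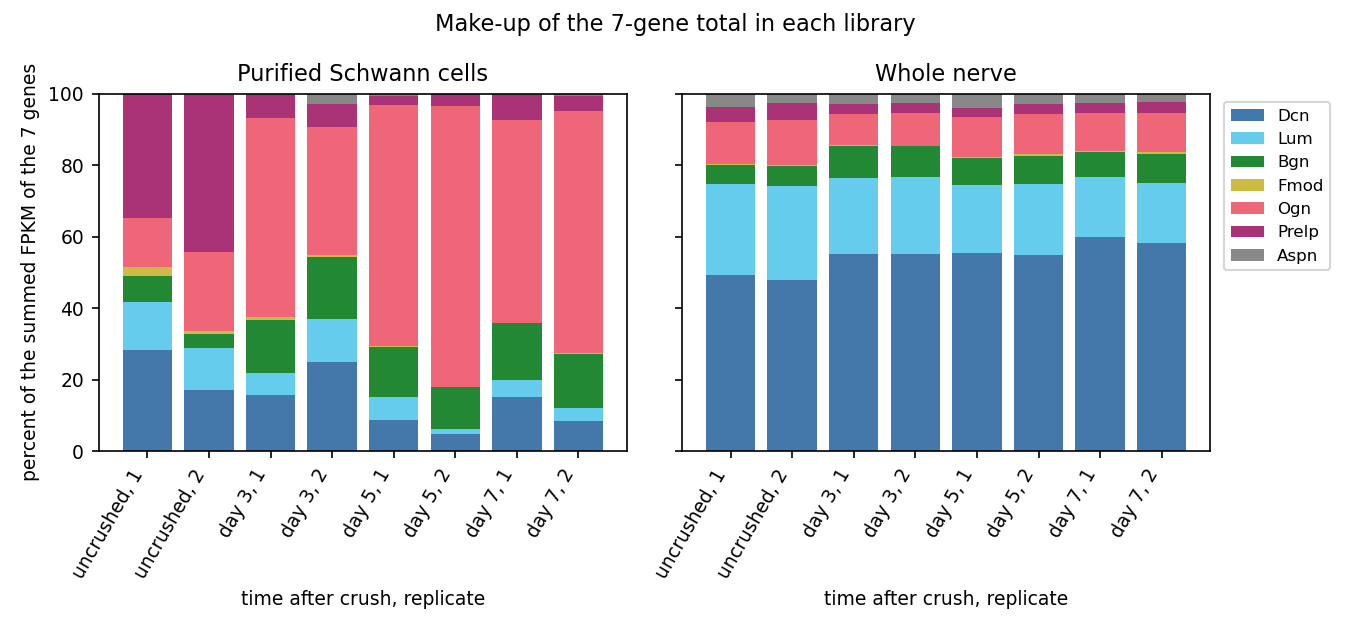
Each gene's percent of the summed FPKM of the 7 genes in each library, for purified Schwann cells (left) and whole nerve (right); bars are libraries and colors are genes. In Schwann cells Prelp gives way to Ogn after crush, at 39.3% and 18.0% on average before crush and 2.82% and 73.0% at day 5, while in whole nerve Dcn and Lum make up most of every bar.

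A ratio of members within a library does not depend on the scaling between libraries. The ratio of Ogn to Dcn in FPKM was 0.488 and 1.29 in uncrushed Schwann cells and 1.43 to 16.02, with a median of 5.75, in the 6 crushed ones, without overlap. The lowest of these was replicate 2 of day 3. In whole nerve it moved the other way, from 0.239 and 0.266 to between 0.159 and 0.207. The ratio of Prelp to Dcn was lower after crush in both tissues, from 1.22 and 2.56 to between 0.257 and 0.657 in Schwann cells and from 0.0842 and 0.0965 to between 0.0474 and 0.0543 in whole nerve. The ratio of Lum to Dcn in whole nerve fell from 0.514 and 0.546 to between 0.282 and 0.389. Over the 8 Schwann cell libraries, Pearson's r of log2 values was 0.908 between Dcn and Lum, 0.842 between Dcn and Fmod, 0.887 between Lum and Fmod, and -0.951 between Ogn and Prelp. In whole nerve Ogn and Prelp had an r of 0.808, Dcn and Lum -0.669, and Fmod and Ogn 0.898. These describe 8 libraries of 4 times that share their depth and, in Schwann cells, any other cells in a library, and they are given without a p.

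Of 10 further genes of the family, 9 were found. Podn was not among the symbols. Tsku, a secreted regulator of several growth factor pathways, rose in Schwann cells. Its FPKM in Schwann cells was 0.75 and 0.70 before crush, 1.38 and 1.66 at day 3, 2.76 and 2.01 at day 5, then 2.87 and 2.59 at day 7. Each crushed library lay above the uncrushed ones, and the log2 fold change was 1.03 (adjusted p = 0.0124), 1.56 (adjusted p = 0.00121) and 1.75 (adjusted p = 0.000779). The day 3 value of Tsku did not pass without replicate 2 of day 3 (0.83, adjusted p = 0.0906). In whole nerve Tsku stayed at 4.42 to 6.23 FPKM with no call. Epyc, the neighbor of Kera in the Lum group, fell in both tissues. In Schwann cells it went from 2.18 and 2.37 FPKM (52 and 51 counts) to 0.04 and 0.07 (1 and 3 counts) at day 3, and in whole nerve from 18.5 and 20.64 FPKM to 1.43 and 1.20. The whole nerve log2 fold change of Epyc was -4.19 ± 0.29 (adjusted p = 1.57e-06), -4.86 ± 0.32 and -3.81 ± 0.30 at days 3, 5 and 7, a larger fall than that of any of the 7. Omd, between Ogn and Aspn, was at 31.5 and 43.49 FPKM in uncrushed nerve and fell by 1.02 ± 0.16 at day 3 and 0.68 ± 0.16 at day 5. Ecm2 fell by 1.23 ± 0.16 at day 3 and 0.45 ± 0.16 (adjusted p = 0.0484) at day 7, and Kera by 1.33 ± 0.32 at day 3. These falls in whole nerve are on the TMM scale. In FPKM, Ecm2 at day 7 (26.1 and 25.07) overlapped with uncrushed nerve (25.06 and 27.98). Omd at day 5 (28.11 and 33.49) overlapped with it too. Omd, Ecm2 and Kera stood at no more than 0.77 FPKM in any Schwann cell library. Optc, Chad, Nyx and Podnl1 had 13 counts or fewer in every library. Over this list, 1 of the 4 genes tested rose in Schwann cells at each time and 1, 2 and 1 fell at days 3, 5 and 7, where 26.9%, 29% and 25% of all genes rose and 25.7%, 25.6% and 21.9% fell. At day 3 without replicate 2, 0 of 5 rose and 1 fell. In whole nerve 0 of 5 rose and 4, 2 and 2 fell, where 22.5%, 19.5% and 15.9% of all genes fell.

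Most of the collagens that these proteins bind fell in Schwann cells, as Prelp did. The summed fibroblast, mural and perineurial markers given above were lower in the same libraries. Col1a1, Col1a2 and Col3a1 are on both the collagen list and the fibroblast list. The part of RNA of such cells in the fall of the collagens was not tested. Of 13 collagen genes tested, 11 fell at day 3, 11 at day 5 and 9 at day 7, and 0, 1 and 1 rose, against the 25.7%, 25.6% and 21.9% of all genes that fell. The median log2 fold change was -2.19, -2.17 and -1.68. Col14a1, a collagen on the surface of fibrils, went from 190.58 and 165.04 FPKM to 20.57 and 18.92 at day 3 (log2 fold change -3.12 ± 0.13, adjusted p = 1.17e-07), and Col11a1, a fibrillar chain, from 22.32 and 23.10 to 1.14 and 1.29 (-4.16 ± 0.16, adjusted p = 7.49e-08). Both were lower in every crushed library. At day 3, 11 of 13 fell and 0 rose without replicate 2 too, with a median of -2.17. In whole nerve 7 of 13 fell at each time and 0, 1 and 1 rose, against 22.5%, 19.5% and 15.9% of all genes that fell there, with Col2a1 at 53.72 and 62.3 FPKM before crush and 1.13 and 0.97 at day 3 (-6.20 ± 0.14, adjusted p = 1.46e-09) and Col5a3 at -1.48 ± 0.12.

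Among the growth factors, receptors and the protease on which these proteins act or are acted on, 14 of 16 were tested in Schwann cells and 15 in whole nerve. In Schwann cells 4 rose at each time and 4, 5 and 7 fell at days 3, 5 and 7, where 26.9%, 29% and 25% of all genes rose and 25.7%, 25.6% and 21.9% fell. The counts at day 3 were 4 and 4 without replicate 2 too. Met, the hepatocyte growth factor receptor to which decorin binds, went from 3.41 and 2.85 FPKM to 49.64 and 57.52 at day 3 (log2 fold change 4.27 ± 0.15, adjusted p = 5.50e-08). Tgfb1, a growth factor that decorin and biglycan bind, went from 3.15 and 2.81 to 18.92 and 17.13 FPKM (2.64 ± 0.19, adjusted p = 2.40e-06). Wisp1, a matricellular protein that binds decorin and biglycan, fell by 1.90 ± 0.43, and Bmp1, the protease that removes the propeptide of biglycan, by 0.52 ± 0.16. With replicate 2 of day 3 left out, Met, Tgfb1 and Wisp1 were still called and Bmp1 was not (-0.31, adjusted p = 0.193). In whole nerve 5, 4 and 5 rose, where 23.1%, 18.9% and 15.4% of all genes did, and 6, 6 and 3 fell, against 22.5%, 19.5% and 15.9%. There Tlr2, a receptor for biglycan, rose from 1.60 and 1.53 FPKM to 8.97 and 10.88 (2.40 ± 0.18, adjusted p = 2.73e-06), and Cd44, a hyaluronan receptor, from 21.37 and 25.51 to 112.96 and 117.63 (1.89 ± 0.11, adjusted p = 2.89e-07). In the same libraries 7 of 7 macrophage markers rose at days 3 and 5 and 6 of 7 at day 7, beside the 3 times at which Bgn was higher, and their part in these values was not tested. Wisp1 fell by 1.59 ± 0.18 and Tgfb3 by 0.86 ± 0.11 at day 3.

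Enzymes that build and sulfate glycosaminoglycan chains rose more often than they fell in Schwann cells. Of 21 tested, 9 rose and 3 fell at day 3, 12 rose and 4 fell at day 5, and 12 rose and 3 fell at day 7, with a median log2 fold change of 0.45, 0.60 and 0.68, where 26.9%, 29% and 25% of all genes rose and 25.7%, 25.6% and 21.9% fell. At day 3 without replicate 2, 9 of 22 rose and 3 fell. Chst15, a sulfotransferase of chondroitin sulfate, went from 1.63 and 1.35 FPKM to 14.17 and 13.43 at day 3 (3.25 ± 0.15, adjusted p = 1.70e-07), and Chsy1, which extends the chondroitin chain, from 13.97 and 12.88 to 39.63 and 36.61 (1.56 ± 0.09, adjusted p = 8.47e-07). Chst2, a sulfotransferase of N-acetylglucosamine in keratan sulfate and other glycans, fell by 2.97 ± 0.24 and Csgalnact2, which starts chondroitin chains, by 0.66 ± 0.13. In whole nerve 6 of 26 rose and 6 fell at day 3, 4 and 2 at day 5, then 3 and 4 at day 7, where 23.1%, 18.9% and 15.4% of all genes rose and 22.5%, 19.5% and 15.9% fell. Chst2 had the largest fall there, from 77.13 and 78.68 FPKM to 4.17 and 4.35 at day 3 (-4.60 ± 0.15, adjusted p = 8.47e-09). Chsy1 rose in whole nerve too (1.34 ± 0.12), as did Chst11, a sulfotransferase of chondroitin (1.55 ± 0.17), and Ust, a sulfotransferase of uronic acid, fell (-1.17 ± 0.20). Of 7 genes of sulfate supply and tyrosine sulfation, 3 rose and 1 fell in Schwann cells at day 3 and 4 rose and 0 fell at days 5 and 7, beside the same 26.9%, 29% and 25% of all genes that rose and 25.7%, 25.6% and 21.9% that fell. Slc26a2, a sulfate transporter, went from 17.13 and 13.19 FPKM to 37.48 and 42.05 at day 3 (1.26 ± 0.12), Tpst2, a protein-tyrosine sulfotransferase, rose by 1.49 ± 0.14, and Slc35b3, a carrier of activated sulfate, fell by 0.37 ± 0.13, a call that was lost without replicate 2 of day 3 (-0.42, adjusted p = 0.0975), which left 3 of 7 that rose and 0 that fell. The Slc35b3 call was also lost without replicate 1 of day 3, without either replicate of day 5 and without replicate 1 of uncrushed cells. In whole nerve 3, 2 and 2 of the 7 sulfate genes rose and 1 fell at each time, beside 23.1%, 18.9% and 15.4% of all genes that rose and 22.5%, 19.5% and 15.9% that fell. There Slc26a2 was at 0.89 ± 0.11, Slc35b2 at 0.87 ± 0.16 and Papss1, a synthase of activated sulfate, at -1.11 ± 0.08 at day 3.

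Among the remaining cell markers, the called genes of lowest adjusted p at day 3 were the following. In Schwann cells Ngfr and S100b rose by 4.63 ± 0.20 and 1.34 ± 0.12, the myelin gene Mag changed by -5.90 ± 0.22, the fibroblast marker Fn1 rose by 1.74 ± 0.27 and the endothelial marker Kdr changed by -1.21 ± 0.41. The leukocyte marker Ptprc rose by 2.76 ± 0.83 there, a call lost without replicate 2 of day 3 (0.71, adjusted p = 0.469). In whole nerve Ngfr and Erbb3 of the Schwann cell list rose by 4.81 ± 0.24 and 0.76 ± 0.14, Cd68 and Ptprc of the macrophage list by 2.23 ± 0.11 and 1.87 ± 0.10, Fn1 and Thy1 of the fibroblast list by 1.05 ± 0.09 and 1.25 ± 0.16, Pecam1 and Esam of the endothelial list by 0.37 ± 0.11 and 0.41 ± 0.14, and Msln of the perineurial list by 3.09 ± 0.25. Lower in whole nerve were Mbp (-4.87 ± 0.10) and Mag (-6.95 ± 0.20), Col3a1 (-0.76 ± 0.08) and Mfap5 (-0.56 ± 0.12), Itgb4 (-1.56 ± 0.15) and Slc2a1 (-0.66 ± 0.11), Kdr (-0.64 ± 0.10), Abcc9 (-0.53 ± 0.14) and Rgs5 (-0.41 ± 0.13), and the muscle genes Acta1 (-5.32 ± 1.32) and Ckm (-5.38 ± 1.43). Replicate 2 of uncrushed nerve stood apart in muscle genes, at 140.73 FPKM of Acta1 and 79.49 of Ckm against 8.09 and 4.97 in replicate 1, and without it the values were -2.12 (adjusted p = 0.152) and -2.30 (adjusted p = 0.194). The calls of Kdr in Schwann cells and of Pecam1, Esam, Abcc9 and Rgs5 in whole nerve were also lost when single replicates were left out. The whole nerve values are on the TMM scale. In mean FPKM, uncrushed nerve and day 3 were at 10.49 and 8.935 for Kdr, 15.8 and 14.6 for Abcc9 and 217 and 216 for Rgs5.

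The genes whose log2 CPM over the 16 libraries was most like that of a member were found among 16822 others. Pearson's r was 0.998 for Serpinf1 with Dcn, 0.998 for Ebf2 with Lum, 0.996 for Adgrl4 with Bgn, 0.989 for Map3k5 with Fmod, 0.994 for Triqk with Ogn, 0.995 for Chrdl1 with Prelp and 0.989 for Adcy4 with Aspn. The next were Srpx2 and Ccdc3 for Dcn, Papss2 and Rnase4 for Lum, Colec12 and Ctss for Bgn, Col6a6 and Rnase4 for Fmod, Susd2 and Clic2 for Ogn, Abi3bp and Col6a1 for Prelp, and Heph and Sox17 for Aspn, with r between 0.981 and 0.997. Each r includes the large difference between the tissues, and no r within a tissue was computed for these genes. These values therefore do not show likeness within a tissue. The Schwann cell libraries were among those that chose these genes, so their changes there are a description. At day 3 the log2 fold changes of Triqk, Susd2 and Clic2, chosen for Ogn, were 1.79, 2.63 and 2.45 (2.01 for Susd2 without replicate 2 of day 3), and those of Abi3bp, chosen for Prelp, were -2.51, -3.83 and -3.73 at days 3, 5 and 7. The genes chosen for Ogn were low in Schwann cells. Their mean FPKM before crush and at day 3 was 0.37 and 1.225 for Triqk, 0.025 and 0.155 for Susd2 and 0.57 and 2.97 for Clic2.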

How the data were processed

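RNA of 16 libraries was aligned by the authors to Rnor_6.0, a rat assembly, with STAR, and expected counts of 31038 genes were estimated with RSEM and deposited without normalization or filter. RSEM's FPKM and TPM, scaled by the authors to gene length and library, were deposited beside them. The authors also deposited Cufflinks FPKM of 6274 genes with module assignments, which were used here for 3 members, in 8 columns named by day and not by tissue and taken as Schwann cells because the study made its modules from those cells, and a count matrix that holds the same counts. The cDNA was amplified and carries no molecular identifiers. No column of per-sample values was left out (0 in number).

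Here expected counts were rounded and entered the quasi-likelihood fits of edgeR 4.0.16 (R 4.3.3, TMM, filterByExpr, Benjamini-Hochberg adjustment over all genes, threshold 0.05) in fits of the 8 Schwann cell libraries, the 8 whole nerve libraries and all 16. Each SE is the ratio of the log2 fold change to the root of its F statistic. Levels are RSEM FPKM. The 2 replicates of each group differed beyond sampling noise. Counts per library limit the precision of low genes, and intervals were not needed for the values given. Groups were taken from the labels.

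The 7 members, the lists of the family, of collagens, ligands and receptors, chain and sulfate enzymes and of cell markers, and the tests were chosen with earlier results of these data known. Named genes were the members, the family list, from each list the 2 risen and the 2 fallen genes of lowest adjusted p at day 3 in either tissue, and the 3 genes most correlated with each member, all of them except 1, which is not reported here. Other genes are said to be chosen after their values were seen. The alternatives run were DESeq2 1.42.0 (Wald test), upper quartile scaling, no filter, a replicate block, leaving out each replicate, other sets of libraries in the fit, TPM, Cufflinks FPKM and, added after the data had been seen, library totals without TMM factors. Gene positions and promoters came from RefSeq records of GRCr8. No genome of Rnor_6.0 was used here.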

Additional observations from a re-analysis of the deposited data

Results flagged for a closer look

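The change after crush differed between purified Schwann cells and whole nerve in 11 of 21 tests of a member at a time, by edgeR in the fit of all 16 libraries with adjustment over 16829 genes, of which 26%, 27.5% and 26% were called at days 3, 5 and 7. The change of Ogn in Schwann cells exceeded that in whole nerve by 1.94, 2.38 and 1.62 log2 units at days 3, 5 and 7, and the 6 crushed Schwann cell libraries all lay above the uncrushed ones. Prelp changed by -1.56, -3.01 and -2.76 relative to whole nerve, with all 6 crushed Schwann cell libraries below the uncrushed ones. Dcn differed by -1.76 at day 5 and -1.67 at day 7, and Fmod by -2.90 and -3.65, calls that were lost without replicate 1 of uncrushed Schwann cells. Aspn differed by 2.93 at day 3, and without replicate 2 of Schwann cells at day 3 the difference was 1.57 and was not called. No cause of these differences was tested.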

How the results depend on the processing

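The number of members called, with 1 replicate left out, was 3 to 6 in Schwann cells at day 5 against uncrushed (5 with all libraries), 2 to 6 at day 7 (4), 0 to 3 from day 3 to day 5 (2) and 0 to 2 from day 3 to day 7 (0). In whole nerve it was 3 to 5 at day 3 (5), 0 to 2 from day 3 to day 5 (1), 0 to 1 from day 5 to day 7 (0) and 0 to 4 from day 3 to day 7 (4), and for the difference between the tissues 2 to 5 at day 5 (4) and 2 to 4 at day 7 (4). In Schwann cells, no filter on low counts gave 6 from day 3 to day 5, 1 from day 5 to day 7 and 5 from day 3 to day 7, DESeq2 gave 1 from day 5 to day 7, and the fit of all 16 libraries gave 2 from day 3 to day 7. In whole nerve, the fit of all 16 gave 2, 1 and 0 at days 3, 5 and 7, 0 from day 3 to day 5 and 2 from day 3 to day 7, and library totals gave 3 at day 3 and 0 from day 3 to day 5. Also in whole nerve, upper quartile scaling gave 2 from day 3 to day 5 and 1 from day 5 to day 7, and DESeq2 gave 1 from day 5 to day 7. No filter gave 3 and 1 there, where 11.0% and 9.24% of all genes were called. Shares of all genes are given for the main fits and for no filter, and not for the other settings. Same-numbered replicates did not deviate together (r between -0.05 and 0.08 over 28 pairs of groups, 0 above 0.1), so the numbers do not pair the samples, and the replicate block gave 2 members from day 3 to day 5 in whole nerve. The block also turned Aspn from day 5 to day 7 in Schwann cells (-0.16) and Bgn from day 3 to day 7 in whole nerve (-0.0055). Values with no call that turned sign with library totals in whole nerve were Aspn at day 3 (0.087) and day 7 (0.14), Fmod at day 5 (0.33), Ogn at day 5 (0.18) and day 7 (0.31) and Bgn from day 3 to day 7 (-2.01e-05), beside the called Lum at day 3 (0.010); the difference between tissues of Lum at day 3 turned to -0.20. Fmod at day 5 in the fit of all 16 (0.018), Lum from day 5 to day 7 with upper quartile scaling (0.0086) and Bgn from day 3 to day 7 without a filter (-0.015) also turned. With 1 replicate left out, values with no call turned sign within these ranges in Schwann cells: at day 3 Dcn -0.82 to 0.70, Lum -1.24 to 0.39 and Fmod -1.76 to 0.56; Aspn -0.29 to 6.23 at day 5 and -0.16 to 6.37 at day 7; from day 3 to day 5 Bgn -0.70 to 0.27; from day 5 to day 7 Dcn -0.013 to 0.84, Lum -1.07 to 1.297, Fmod -1.13 to 2.04 and Aspn -0.93 to 0.83; and from day 3 to day 7 Bgn -0.84 to 0.12 and Ogn -0.14 to 0.42. In whole nerve they were at day 5 Fmod -0.27 to 0.14 and Aspn -0.21 to 0.22, at day 7 Fmod -0.23 to 0.75 and Ogn -0.23 to 0.056, from day 5 to day 7 Lum -0.077 to 0.019 and Fmod -0.16 to 0.79, and from day 3 to day 7 Bgn -0.14 to 0.14 and Aspn -0.026 to 0.14. For the difference between tissues they were at day 3 Dcn -1.002 to 0.56, Lum -0.96 to 0.71 and Fmod -0.82 to 1.48, and Aspn -0.40 to 6.003 at day 5 and -0.065 to 6.34 at day 7. The causes were not tested. Aspn and Fmod in Schwann cells rest on few counts, and small changes in whole nerve rest on the scaling.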
